A study of Mus musculus with 10 samples.

Results

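The 43 genes described here make or run the folding, translocation, export, disposal and stress signalling machinery of the endoplasmic reticulum (ER). They were chosen by gene symbol, as secretory machinery that plasma cells expand. The rule held no measured value, but earlier results of these data were known when the genes were chosen. They are 43 of the 12253 genes tested, and all 43 passed the filter on dim signal. Each gene was read from its brightest probe set by the mean of the 10 arrays, and its further probe sets served as a check. The samples were splenic B cells of C57BL/6 mice, either Irf4+/+ or Irf4-/- littermates at 12 weeks of age, with 5 arrays for each genotype. Irf4 encodes a transcription factor that B cells induce on activation and need for plasma cell formation. After magnetic removal of other spleen cells, all cultures of both genotypes received anti-CD40 antibody and 20 ng/ml IL-4 for 3 days. RNA was hybridised to 1-colour Affymetrix 3′ arrays. Whether each array stands for its own mouse or culture is not stated in the labels. The p-values therefore cover only the spread among these samples, and that spread may be technical. Nor do they say which part of Irf4 was disrupted.

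Proteins bound for secretion enter the ER through the Sec61 channel, lose their signal peptide, fold with the help of chaperones and disulfide isomerases, and leave in COPII vesicles. Proteins that fail to fold are drawn back to the cytosol and degraded. When unfolded proteins build up, the membrane sensors ATF6, IRE1 (encoded by Ern1) and PERK (encoded by Eif2ak3) start the unfolded protein response, which raises ER chaperone genes and slows translation. Plasma cells use this response as part of their normal development, to enlarge the ER for antibody secretion.

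Several promoters of these genes carry the ER stress response element (ERSE), the sequence that ATF6 binds together with the factor NF-Y. Windows of 300 bases, from 250 before to 50 after the annotated start site, were taken from RefSeq (build GRCm38.p6) for 36 of the 43 genes. The element was searched as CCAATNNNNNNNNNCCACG on both strands. It was found in 9 of the 36 windows (25%), against 37 of 27025 genes with a window (0.137%) and 13 of 9925 tested genes with one (0.131%). As several of these promoters are known to carry the element, its frequency here is a description and was not tested. These stretches are shown because the element was more frequent in these windows than in all windows. The match is in capitals and 10 bases on either side in lower case, 5′ to 3′ along the gene. Hsp90b1 had 2 matches, and the stretch between them is given whole.
Hspa5 (chr2:34772015-34772053, plus strand): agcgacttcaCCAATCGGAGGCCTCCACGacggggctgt
Hsp90b1 (chr10:86705523-86705666, minus strand): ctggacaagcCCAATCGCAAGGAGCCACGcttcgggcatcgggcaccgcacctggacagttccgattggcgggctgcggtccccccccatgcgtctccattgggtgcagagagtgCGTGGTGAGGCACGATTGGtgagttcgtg
Canx (chr11:50325790-50325828, minus strand): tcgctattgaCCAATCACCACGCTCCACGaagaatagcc
Dnajc3 (chr14:118937817-118937855, plus strand): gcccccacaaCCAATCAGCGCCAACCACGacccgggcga
Pdia6 (chr12:17266481-17266519, plus strand): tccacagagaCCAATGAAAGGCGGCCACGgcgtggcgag
Creld2 (chr15:88819510-88819548, plus strand): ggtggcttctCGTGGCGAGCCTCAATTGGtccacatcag
Derl3 (chr10:75893232-75893270, plus strand): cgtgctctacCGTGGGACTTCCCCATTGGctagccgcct
Syvn1 (chr19:6046522-6046560, plus strand): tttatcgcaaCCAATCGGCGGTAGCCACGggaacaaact
Calr (chr8:84847065-84847103, minus strand): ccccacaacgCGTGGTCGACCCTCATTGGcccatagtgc

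A shorter relative of the element, ERSE-II (searched as ATTGGNCCACG), was found upstream of Herpud1 and just downstream of the start of Dnajb11, against 12 of all 27025 genes (0.0444%) and 0.0907% of tested genes. The core of the unfolded protein response element (TGACGTGG), which XBP1 binds, was found in 1 member, Sec24d, against 0.714% of all genes and 1.06% of tested genes. These stretches are shown because their matches lie wholly before the start site, and that of Dnajb11, which lies after it, is not shown.
Herpud1 (chr8:94386367-94386397, plus strand): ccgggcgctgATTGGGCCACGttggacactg
Sec24d (chr3:123267460-123267487, plus strand): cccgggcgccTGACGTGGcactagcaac

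Across the 43 genes, transcripts of the ER machinery were mostly lower in Irf4-/- cells, by modest amounts. The 5 genes that were higher were the chaperones Hyou1 and Dnajb9, the isomerases Pdia3 and Pdia4, and the degradation ligase gene Syvn1. A gene was called lower or higher when its adjusted p was under 0.05 in a limma fit over all 12253 genes with Benjamini-Hochberg adjustment. By that rule 28 members were lower (65.1%), 5 were higher (11.6%) and 10 were not called. Over all genes 47.2% were called, 23.9% lower and 23.3% higher. The counts by role given below stand beside these same shares. The median log2 fold change of the members was -0.37, beside 0.00 over all genes, and 34 of the 43 had a value below 0. The genotypes did not overlap for 26 members with Irf4-/- lower, beside 18.3% of all genes, and for 2 with Irf4-/- higher, beside 17.4%.

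Large changes were few. Sec24d and Derl3 fell by at least 2-fold, and no member rose that far, beside 2.62% of all genes lower and 5.42% higher by that size. At least 1.5-fold changes were found for 10 members lower and 1 higher, beside 8.40% and 11.4% of all genes. Fold changes are on the scale of log2(signal + 7.9), which understates the change of dim genes.

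**Figure D1:**
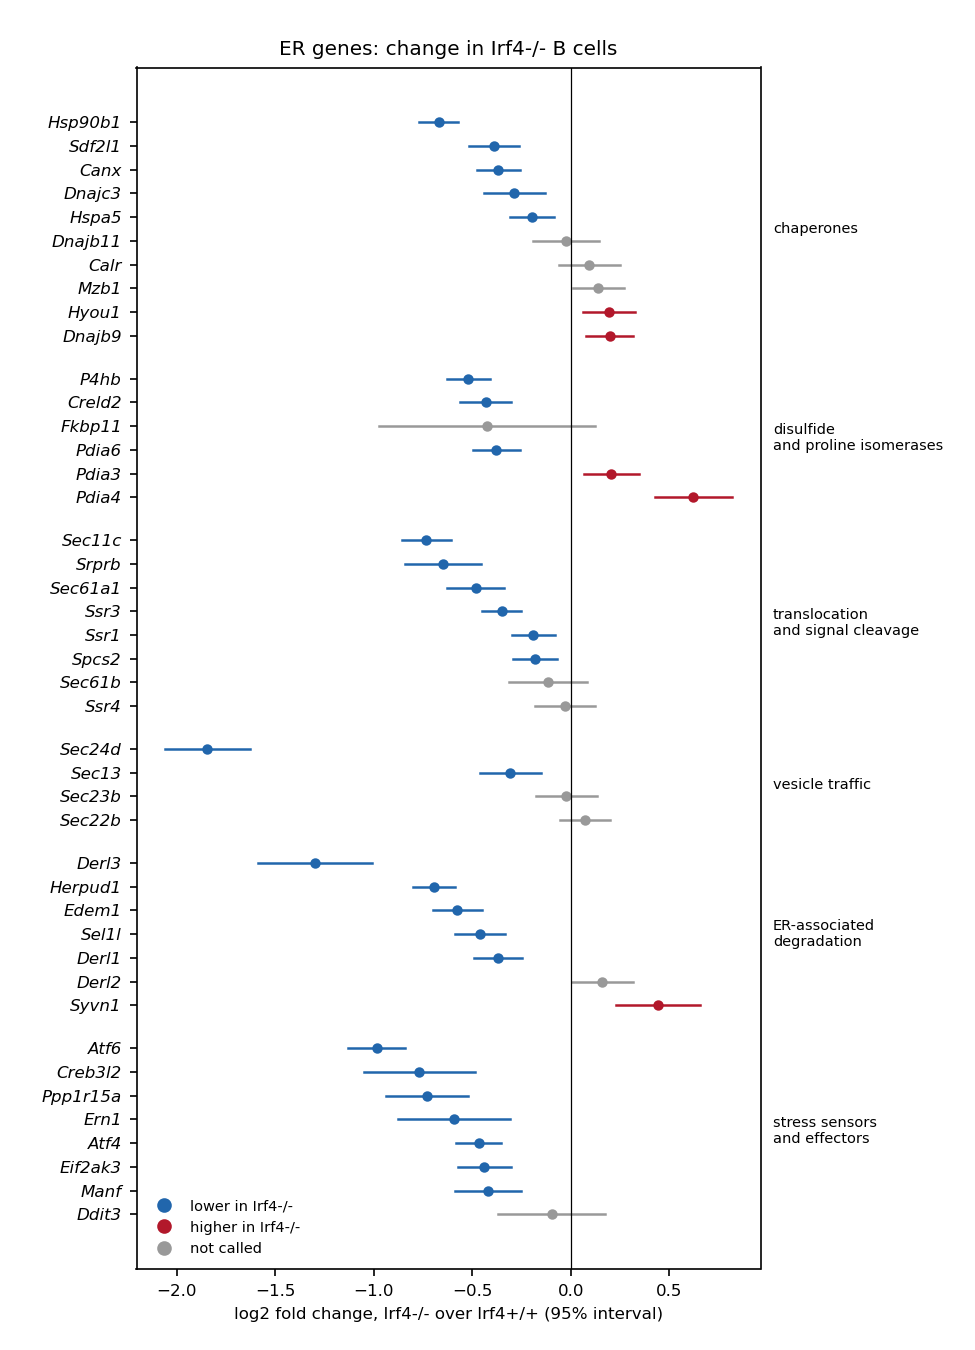
Log2 fold change of each of the 43 genes (Irf4-/- over Irf4+/+, points) with its 95% interval from limma (lines), grouped by role and coloured by call. The 28 genes in blue were lower and the 5 in red higher; Sec24d lies farthest to the left at -1.84 and Pdia4 farthest to the right at 0.62.

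Irf4 signal itself was lower but still present in the Irf4-/- samples, at 3761 ± 211 in Irf4+/+ and 2792 ± 128 in Irf4-/- (SD, n = 5; limma adjusted p = 5.01e-06). A dimmer Irf4 probe set read 426 ± 79.0 and 325 ± 91.4 with overlapping groups. It was not called (log2 fold change -0.40, limma adjusted p = 0.0502 over all probe sets). Because the sources used here do not place the Irf4 probe sets relative to the disruption, these values do not check the genotype. Of 10 B cell markers listed, 9 could be measured and all 9 were called higher in Irf4-/- samples, with summed signals of 26942 to 30552 in Irf4+/+ and 49936 to 56801 in Irf4-/-. Of 8 plasma cell markers, among them Irf4 and Xbp1, 7 passed the filter and all 7 were lower, with sums of 17425 to 18682 and 12149 to 13856. Natural killer cell markers were higher for 8 of 8 past the filter (sums 1265 to 1504 against 11607 to 15969). Most of those sums came from the granzyme genes Gzma (means of 819 and 8256) and Gzmb (362 and 4868). The receptor genes Ncr1 (16.2 and 45.7) and Klrk1 (25.2 and 58.4) were dim, and Klra1 was under the filter (6.1 and 4.9). Macrophage markers were higher for 5 of 7 (567 to 629 against 2211 to 2494). Granulocyte markers were higher for 3 of 5 (149 to 236 against 688 to 1156). Of 3 dendritic cell markers 2 were higher and 1, Flt3, was lower, from 417 to 53.2. The dendritic cell sums were lower in Irf4-/- samples (742 to 890 against 495 to 603). Of 3 T cell markers 1 was higher and 1 lower, and 0 of 2 erythroid and platelet markers were called. Tnfrsf17, Klra1, Cd3e, Cd3d, Cd3g, Cd4, Cd8b1, Cd14 and Itgam were under the filter. So were Xcr1, Siglech, Ccr9, Clec10a, Camp, Ltf, Mmp8, Lcn2, Hba-a1, Alas2, Slc4a1, Ppbp and Gp9. No marker was at 0 on all arrays. The 18S ribosomal RNA control read 58.1 to 104.9 in Irf4+/+ and 126.2 to 289 in Irf4-/- samples. The part of these differences in the results on the ER genes was not tested, and in bulk RNA fewer cells of a type and less RNA per cell cannot be told apart.

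Chaperones of the ER lumen moved both ways. Of 10, 5 fell (50%), 2 rose (20%) and 3 were not called, beside 23.9% lower and 23.3% higher of all genes. Hsp90b1 encodes GRP94, the ER member of the HSP90 family, which folds integrins and Toll-like receptors. It read 7965, 7638, 8232, 7593 and 7593 signal units on the Irf4+/+ arrays, and 4762, 4779.5, 5183, 4961 and 4826 on the Irf4-/- arrays. Every Irf4-/- array was well below every Irf4+/+ array, and the mean fell 1.59-fold, from 7804 ± 285 to 4902 ± 175 (SD, n = 5; log2 fold change -0.67, SE 0.0464, limma adjusted p = 4.99e-09).

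Hspa5 encodes BiP, the HSP70 of the ER, which binds unfolded chains and holds the stress sensors inactive. Its Irf4+/+ arrays read 14209, 13841, 14110.0, 13928 and 12883, and its Irf4-/- arrays 12775, 12402, 11613, 10990.2 and 12463. The groups did not overlap, but the highest Irf4-/- array was only just below the lowest Irf4+/+ array. The fall was 1.15-fold (log2 fold change -0.20, SE 0.0517, limma adjusted p = 0.0048). That value ranged from -0.22 to -0.16 over the arrays left out in turn. Averaging the log2 values of its probe sets gave -0.11 (adjusted p = 0.0803), the smallest fall over all alternatives. Quantile normalization gave the largest, at -0.30, so the size of the Hspa5 fall depended on the processing. The 95% interval of its log2 fold change was -0.31 to -0.09, and that of Hsp90b1 was -0.77 to -0.57; the difference between the genes was not tested.

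Canx encodes calnexin, the membrane-bound lectin chaperone of the glycoprotein cycle. Its signals were 7674, 8039.5, 7671, 7529 and 7276 in Irf4+/+ and 5619, 5689, 5776, 6491 and 6039.9 in Irf4-/- samples, a fall of 1.29-fold without overlap (log2 fold change -0.37, SE 0.051, limma adjusted p = 1.54e-05). Its soluble relative calreticulin (Calr) was not called, at 8618 ± 1067 and 9153 ± 364 (SD, n = 5; log2 fold change 0.09, 95% interval -0.06 to 0.25). Sdf2l1, a partner of the ER HSP40 proteins, read 2336, 2056, 2285, 2215 and 2281 in Irf4+/+ and 1638, 1781, 1562, 1665 and 1881 in Irf4-/- samples. That was a fall of 1.31-fold without overlap (adjusted p = 4.27e-05).

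The BiP cochaperones differed from each other. Dnajc3, which also restrains PERK, fell 1.22-fold from 974 ± 34.2 to 801 ± 85.5 (adjusted p = 0.00355), and by -0.16 on the log2 scale when its probe sets were averaged (adjusted p = 0.0514). Dnajb9, which feeds clients to BiP and recruits it to IRE1, rose 1.15-fold from 1222 ± 56.3 to 1403 ± 74.7 without overlap (adjusted p = 0.0078). Hyou1, the large HSP70 that exchanges nucleotide on BiP, rose 1.14-fold (adjusted p = 0.0151), with overlapping groups. A dimmer Hyou1 probe set gave a larger rise of 1.58-fold, from 316.9 ± 58.3 to 500.7 ± 50.7 (adjusted p = 0.000172 over all probe sets). Dnajb11 was not called (log2 fold change -0.02, 95% interval -0.19 to 0.15). Mzb1, a B cell cochaperone of GRP94 that assists antibody assembly, was not called either, at 9635 ± 363 and 10649 ± 989 (log2 fold change 0.14, adjusted p = 0.0734). Mzb1 was called higher without Irf4-/- replicate 4 (0.19, adjusted p = 0.00476), its lowest array of that genotype at 9222.

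Among the 6 isomerase and related genes 3 fell, 2 rose and 1 was not called. P4hb encodes PDI itself, the founding disulfide isomerase. Signals were 5588, 5942, 5984, 5815 and 5738 in Irf4+/+ and 4187, 4377, 4112, 3799 and 3816 in Irf4-/- samples. The arrays of the genotypes were far apart, with a fall of 1.43-fold (log2 fold change -0.52, SE 0.051, limma adjusted p = 3.19e-07). Pdia6, an isomerase that binds BiP, fell 1.30-fold from 3043 ± 188 to 2339 ± 124 (SD, n = 5; adjusted p = 3.44e-05). Creld2, a secreted ER stress protein with isomerase activity, read 1584, 1365, 1523, 1635 and 1546 in Irf4+/+ and 1191, 1156, 1114, 1031 and 1166 in Irf4-/- samples, and fell 1.35-fold (adjusted p = 2.01e-05).

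Pdia4, the isomerase ERp72, went the other way. It read 1733, 1587, 1607, 1554 and 1338 on the Irf4+/+ arrays and 2235, 2251, 2028, 2695 and 2924 on the Irf4-/- arrays. Every Irf4-/- array was above every Irf4+/+ array, and the rise of 1.54-fold was the largest of any member's brightest probe set, though a dimmer one of Hyou1 rose more (log2 fold change 0.62, SE 0.0924, limma adjusted p = 3.09e-05). Pdia3, or ERp57, which works with calnexin and calreticulin on glycoproteins, rose 1.15-fold with overlapping groups, from 6459 ± 663 to 7428 ± 389 (SD, n = 5; adjusted p = 0.0171). That call was lost with each array centred on its median (log2 fold change 0.17, adjusted p = 0.0741), without a variance trend (adjusted p = 0.0553) and with its probe sets averaged (adjusted p = 0.0721). Fkbp11, a proline isomerase abundant in plasma cells, was dim in both genotypes at 44.2 ± 13.8 and 30.8 ± 9.65 and was not called (log2 fold change -0.43, 95% interval -0.98 to 0.12). A further Fkbp11 probe set, also dim, had the opposite sign (0.51, adjusted p = 0.21).

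**Figure D2:**
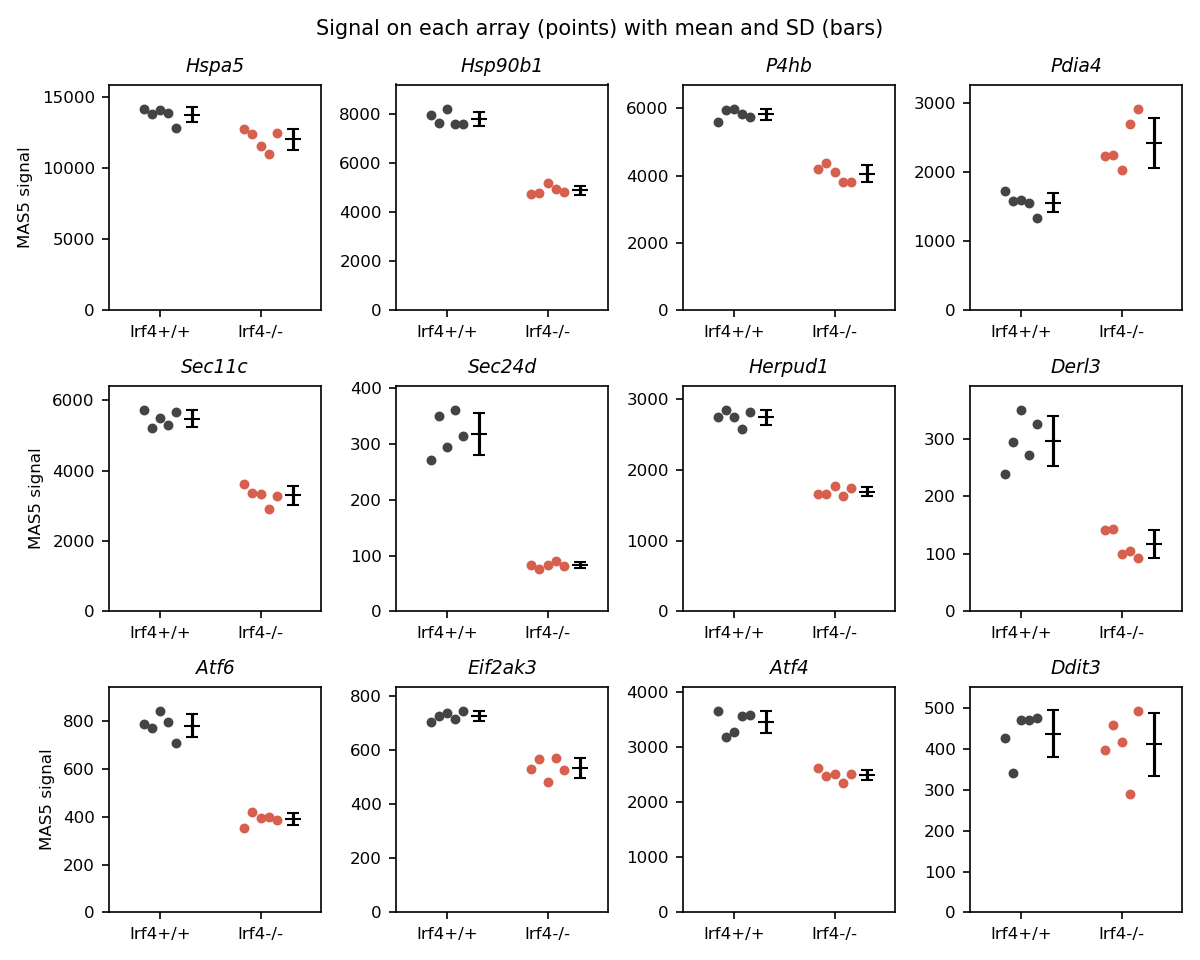
MAS5 signal of 12 of the genes on every array (points, 5 for each genotype; vertical axes in signal units from 0), with the mean and SD at the right of each group. Irf4-/- arrays lie apart below Irf4+/+ arrays for Sec24d, Derl3, Atf6 and Hsp90b1, apart above for Pdia4, and mixed with them for Ddit3.

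Translocation genes were lower: of 8, 6 fell, 0 rose and 2 were not called, and all 8 log2 fold changes were below 0. Sec11c encodes a catalytic subunit of signal peptidase, the enzyme that removes signal peptides. Its arrays read 5729, 5204, 5499, 5286 and 5675 in Irf4+/+ and 3629, 3360.1, 3331, 2897 and 3273 in Irf4-/- samples. There was no overlap, and the mean fell 1.66-fold from 5479 ± 231 to 3298 ± 263 (SD, n = 5; log2 fold change -0.73, SE 0.0587, limma adjusted p = 2.92e-08). That probe set is one of those that can bind several transcripts, which may all be of the same gene. The other Sec11c probe set, at 74.4 and 55.6 signal units, gave -0.36 (adjusted p = 0.0702). Spcs2, an accessory subunit of the same enzyme, fell 1.13-fold from 3651 ± 188 to 3218 ± 148 (adjusted p = 0.0088), with overlapping groups.

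Sec61a1 encodes the pore of the translocation channel. It read 5724, 5630.2, 5635, 5294 and 4853 in Irf4+/+ and 4131, 4111, 3864, 3284 and 4074 in Irf4-/- samples, and fell 1.40-fold (log2 fold change -0.48, SE 0.068, limma adjusted p = 1.87e-05). All 5 further Sec61a1 probe sets were called lower too, from -0.51 to -0.40. The small channel subunit Sec61b was not called (log2 fold change -0.12, 95% interval -0.32 to 0.08). Srprb, which anchors the receptor of the signal recognition particle, read 309.6, 355, 377, 349 and 392 in Irf4+/+ and 220.4, 193, 245, 248 and 218 in Irf4-/- samples. It fell 1.57-fold without overlap (adjusted p = 1.59e-05). A second Srprb probe set, nearly as bright, fell from 350 to 220 signal units (log2 fold change -0.66, limma adjusted p = 4.30e-05 over all probe sets). With probe sets shared between transcripts left out, both of these among them, a dim one remained, at -0.09 (adjusted p = 0.73).

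The translocon-associated proteins help some signal sequences to enter the channel. Ssr3 fell 1.28-fold from 4114 ± 94.8 to 3226 ± 146 (SD, n = 5; adjusted p = 1.13e-05), and Ssr4 was not called at 3013 ± 206 and 2957 ± 300 (log2 fold change -0.03). Ssr1 fell 1.14-fold on its brightest probe set, from 3172 ± 159 to 2778 ± 102 (adjusted p = 0.00534). Its other probe sets disagreed among themselves. A second, also bright, was called higher (1483.5 against 1697.8 signal units, log2 fold change 0.19), while dimmer ones fell from 209.8 to 95.7 (-1.08) and from 82.6 to 40.5 (-0.91).

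Vesicle traffic out of the ER held the largest change of any member, while 2 of its 4 genes fell, 0 rose and 2 were not called. Sec24d is a cargo-binding subunit of the COPII coat. It read 272, 349.6, 295, 361 and 314 on the Irf4+/+ arrays and 82.5, 75.8, 82.8, 90.4 and 81.3 on the Irf4-/- arrays. The Irf4-/- arrays were tightly grouped far below the others, at 25.9% of the Irf4+/+ mean (318 ± 37.3 against 82.6 ± 5.22, SD, n = 5). The fall was 3.59-fold (log2 fold change -1.84, SE 0.102, limma adjusted p = 3.02e-10), and Sec24d had a single probe set past the filter. Sec13, of the outer coat, read 1122, 1269.5, 1186, 1189 and 1219 in Irf4+/+ and 983, 1024, 952, 806 and 1084 in Irf4-/- samples, a smaller fall of 1.24-fold without overlap (adjusted p = 0.00225). Sec23b, which pairs with Sec24 proteins in the inner coat, was not called at 1788 ± 183 and 1754 ± 117 (log2 fold change -0.02, 95% interval -0.18 to 0.13). The vesicle fusion protein Sec22b was not called at 905 ± 51.3 and 952 ± 45.8 on its brighter probe set, but averaging both gave a rise (log2 fold change 0.16, adjusted p = 0.0304). Of the other cargo-binding paralogs, Sec24a fell 1.42-fold from 789 ± 69.9 to 553 ± 62.5 (adjusted p = 7.77e-05), while Sec24b (log2 fold change -0.07) and Sec24c (-0.01) were not called. Sec24b and Sec24c are named after their values were seen.

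Of the 7 genes of ER-associated degradation 5 fell, 1 (Syvn1) rose and 1 (Derl2) was not called. The derlins form part of the channel that returns misfolded proteins to the cytosol. Derl3, the derlin typical of secretory cells, read 239, 295, 351, 272 and 325 in Irf4+/+ and 142, 144, 99.3, 105 and 92.5 in Irf4-/- samples. It fell 2.46-fold without overlap (296 ± 44.1 to 117 ± 24.6, SD, n = 5; log2 fold change -1.30, SE 0.137, limma adjusted p = 7.37e-07). It rests on a single probe set, of the kind that can bind several transcripts, which may all be of the same gene. Derl1 fell 1.29-fold from 3385 ± 271 to 2611 ± 83 (adjusted p = 4.97e-05). Derl2 was not called at 1111 ± 94.3 and 1245 ± 112 (log2 fold change 0.16, adjusted p = 0.0861), and was called higher without Irf4+/+ replicate 1 (adjusted p = 0.0308) or Irf4-/- replicate 4 (adjusted p = 0.0251).

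Herpud1, a scaffold of the degradation complex, read 2749, 2846, 2741, 2569 and 2807 in Irf4+/+ and 1656, 1661, 1764, 1622 and 1747 in Irf4-/- samples. The groups were far apart, and it fell 1.62-fold from 2742 ± 106 to 1690.0 ± 61.8 (SD, n = 5; log2 fold change -0.70, SE 0.0498, limma adjusted p = 7.59e-09). Edem1, a lectin that extracts misfolded glycoproteins from the folding cycle, read 2485, 2423, 2338, 2459 and 2357 in Irf4+/+ and 1431, 1549, 1675, 1726 and 1711 in Irf4-/- samples, a fall of 1.49-fold (adjusted p = 4.44e-07). The other Edem1 probe set, also bright, read 1796 ± 128 and 1537 ± 240 (SD, n = 5) and was not called (log2 fold change -0.24, limma adjusted p = 0.0631 over all probe sets). Sel1l, the partner that stabilises the ligase HRD1, fell 1.38-fold from 2150.3 ± 94.0 to 1562 ± 121 (adjusted p = 7.37e-06), and its 4 further probe sets were called lower too. Syvn1, which encodes HRD1, rose 1.36-fold, with means of 1151 ± 181 and 1559 ± 176 (limma adjusted p = 0.00166). Its groups overlapped in 1 array of each genotype, and its second probe set was also called higher (0.45, adjusted p = 4.69e-05 over all probe sets).

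Of the 8 stress sensor and effector genes 7 fell, 0 rose and 1 was not called. The sensor genes Atf6, Ern1 and Eif2ak3 were called lower on their brightest probe sets, and the ATF6 paralog Atf6b, from the wider list and named after its value was seen, gave 0.06 on the log2 scale and was not called (limma adjusted p = 0.729). Atf6 encodes the sensor that is cut in the Golgi to release a transcription factor. It read 787, 772, 845, 799 and 709 in Irf4+/+ and 354, 422, 396, 398 and 387 in Irf4-/- samples. The Irf4-/- mean was 50% of the Irf4+/+ mean (782 ± 49.0 against 391 ± 24.7, SD, n = 5), a fall of 1.98-fold without overlap (log2 fold change -0.99, SE 0.0684, limma adjusted p = 5.14e-09). Both further Atf6 probe sets were called lower (-1.08 and -0.68).

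Ern1, whose product IRE1 splices Xbp1 messenger RNA, read 165, 156, 183, 187 and 139 in Irf4+/+ and 99.5, 99.4, 94.0, 151 and 98.3 in Irf4-/- samples. The groups overlapped because Irf4-/- replicate 4 reached the Irf4+/+ range, while the other 4 Irf4-/- arrays lay below it. Ern1 fell 1.51-fold (-0.59 on the log2 scale, SE 0.134, limma adjusted p = 0.00158), and its averaged probe sets gave -0.29 (adjusted p = 0.179). That average includes Ern1 probe sets under the filter, at 23.5 and 3.08 signal units. The further ones past the filter gave -0.53 (limma adjusted p = 0.0663 over all probe sets) and -0.39 (adjusted p = 0.393) and were not called. Eif2ak3, whose product PERK slows translation by phosphorylating eIF2 alpha, read 707, 728, 740.2, 714 and 747 in Irf4+/+ and 529, 568, 483, 572 and 526 in Irf4-/- samples. It fell 1.35-fold without overlap (log2 fold change -0.44, SE 0.0625, limma adjusted p = 2.09e-05). Averaging its probe sets gave 0.012 (adjusted p = 0.955), where both of the others were under the filter at 23.2 and 10.6 signal units.

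Downstream of PERK, Atf4 and Ddit3 differed in result. Atf4, the transcription factor whose translation rises when eIF2 alpha is phosphorylated, read 3666, 3196, 3287, 3562 and 3595 in Irf4+/+ and 2618, 2486, 2521, 2354 and 2516 in Irf4-/- samples, a fall of 1.38-fold without overlap (log2 fold change -0.47, SE 0.0533, limma adjusted p = 1.81e-06). Ddit3, which encodes the death-associated factor CHOP, read 427, 340.5, 471, 472 and 476 in Irf4+/+ and 398, 458, 418, 289 and 494 in Irf4-/- samples. These arrays were mixed, and Ddit3 was not called (log2 fold change -0.10, 95% interval -0.37 to 0.17, limma adjusted p = 0.574). Ppp1r15a encodes GADD34, which directs the removal of phosphate from eIF2 alpha. Its arrays read 436, 438, 493, 529 and 583 in Irf4+/+ and 344, 277, 322, 274 and 263 in Irf4-/- samples, a fall of 1.66-fold without overlap (adjusted p = 1.07e-05).

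Creb3l2, a membrane-bound relative of ATF6 that serves secretory cells, read 133, 136, 118, 114 and 103 in Irf4+/+ and 64.6, 66.3, 55.7, 79.9 and 73.0 in Irf4-/- samples. It fell 1.70-fold without overlap (121 ± 13.6 to 67.9 ± 9.11, SD, n = 5; adjusted p = 0.000152). Manf, a secreted factor induced by ER stress, fell 1.34-fold from 4422 ± 381 to 3312 ± 375 (adjusted p = 0.000322).

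Members with and without an ERSE in the window had similar median changes. Of the 9 members with an ERSE in the window 7 fell, Syvn1 rose and Calr was not called, with a median log2 fold change of -0.37. Of the 27 members whose window had none, 16 fell, 3 rose and 8 were not called, with a median of -0.35. The 4 other tested genes with an ERSE, none a member, were Ero1b, Alg12 and Pan2, which were called higher (0.67, 0.48 and 0.35), and Adcy3, which was not called. As IRF-binding sequences, only the interferon response pair and the ETS-IRF element were searched, within these windows, and each matched in 2 members. The interferon response pair GAAANNGAAA lay in the windows of Sec23b and Ppp1r15a (5.56% of members, 3.99% of all genes). The ETS-IRF element GGAANNGAAA lay in those of Dnajb11 and Eif2ak3 (5.56% and 3.16%), and the ATF4 and C/EBP element TGATGNAA in that of Herpud1 (2.78% and 4.51%). Of the tested genes with a window, 3.69% held the interferon response pair, 2.88% the ETS-IRF element and 2.73% the ATF4 and C/EBP element. ERSE and ERSE-II end in the same letters and both IRF sequences share GAAA, but no matches in members' windows overlapped. A match is a description of these letters and does not show binding.

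Further probe sets mostly had the direction of the brightest one. The 43 genes had 93 probe sets past the filter, 28 genes had more than 1, and 46 of the 50 further probe sets had the same sign. For the 33 called members, 29 of 42 further probe sets were called in the same direction and 1, the second of Ssr1, in the opposite one. Over all probe sets 42.5% were called. Hspa5, Hsp90b1, Calr, P4hb, Fkbp11, Ssr3 and Derl3 had no value once probe sets shared between transcripts were left out.

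**Figure D3:**
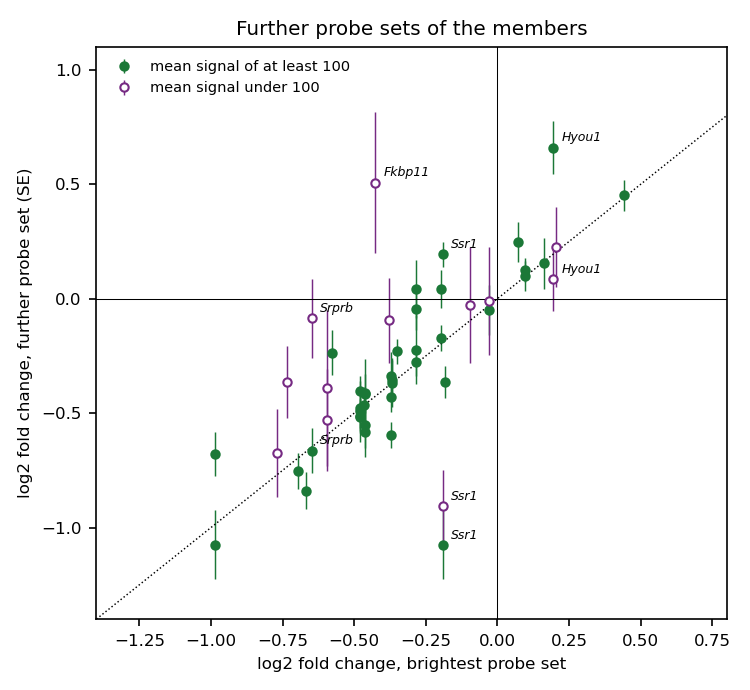
Log2 fold change of the 50 further probe sets (vertical axis, with SE) against that of the brightest probe set of the same gene (horizontal axis); filled points have a mean signal of at least 100 and open points less, and the dotted line marks equal values. Most points lie near the line, and Ssr1, Hyou1, Fkbp11 and Srprb are labelled because their probe sets differ.

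Other genes of the ER machinery, listed with earlier results of these data known, were also called lower more often than higher. Of 179 other ER genes listed by role, 161 were tested, of which 62 were lower (38.5%) and 24 higher (14.9%), beside 23.9% and 23.3% of all genes. Their median log2 fold change was -0.13. Translocation and glycan transfer genes had 16 lower and 1 higher of 29. Among them Rpn1, of the oligosaccharyltransferase, fell 1.47-fold from 6428 ± 226 to 4369 ± 292 (SD, n = 5), its partner Krtcap2 fell 1.43-fold and the signal recognition particle subunit Srp72 1.41-fold.

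The oxidative folding genes Txndc5 and Ero1a had the largest falls of this wider list. Of 17 isomerase and oxidase genes 5 fell (29.4%) and 3 rose (17.6%), not far from the 23.9% and 23.3% of all genes. Txndc5, a PDI family member of plasma cells, fell 2.96-fold from 1261 ± 114 to 421 ± 41.2 (log2 fold change -1.56, SE 0.0797, limma adjusted p = 1.22e-10). The oxidase Ero1a, which recharges PDI, fell 2.78-fold from 3213 ± 169 to 1156 ± 117 (adjusted p = 5.47e-11), and Txndc11 fell 2.28-fold. The second oxidase, Ero1b, rose 1.59-fold from 640.4 ± 59.5 to 1024 ± 123 (adjusted p = 7.74e-06), and is named after its value was seen.

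Stress effectors beyond the members had 12 lower and 4 higher of 27. The stress-induced genes Sesn2, Atf3 and Chac1, known targets of ATF4, fell 2.56-fold, 2.18-fold and 1.96-fold, with Chac1 going from 436 ± 54.4 to 218 ± 18.6 (adjusted p = 2.73e-07). Xbp1, which directs ER expansion in plasma cells, fell 1.15-fold from 9998 ± 302 to 8715 ± 581 (adjusted p = 0.00411). A 3′ array does not tell its spliced form from the unspliced one.

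Of 30 further degradation genes 12 fell and 5 rose, led by the mannosidase Man1b1 (1.79-fold lower), Ubac2 (1.49-fold lower) and the ligase Marchf6 (1.36-fold lower). Of 17 chaperone and glycan-trimming genes 6 fell and 2 rose. Mogs, which trims the first glucose from new glycans, fell 1.77-fold, Hspa13 fell 1.49-fold and Dnajb14 rose 1.62-fold. Of 41 traffic genes 11 fell (26.8%) and 9 rose (22.0%), with a median of -0.01. Those shares are close to the 23.9% and 23.3% of all genes. The cargo receptor Lman1 fell 1.81-fold from 1399 ± 155 to 767 ± 38.4 (adjusted p = 6.88e-08), and Preb, which loads the GTPase that starts coat assembly, fell 1.43-fold.

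**Figure D4:**
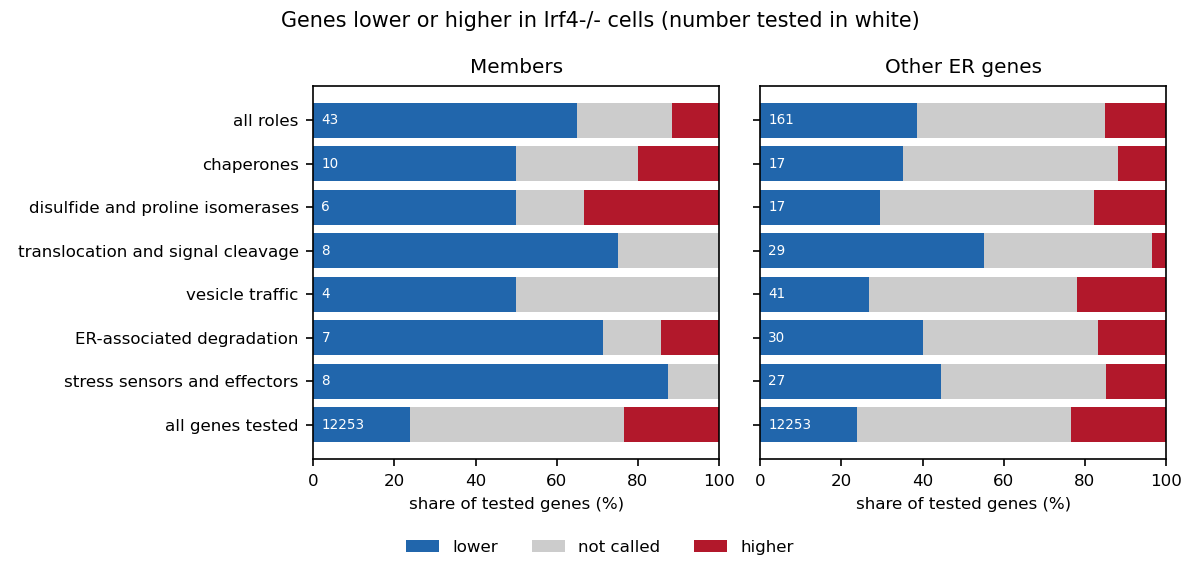
Share of tested genes called lower (blue), not called (grey) or higher (red) in Irf4-/- samples, in percent, for the 43 members (left) and the 161 other ER genes tested (right), by role, with the number tested in white and all 12253 genes at the bottom. The blue share is 65.1% of members and 38.5% of the other ER genes, against 23.9% of all genes.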

How the data were processed

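RNA of 10 samples, 5 Irf4+/+ and 5 Irf4-/-, was read on 1-colour arrays from 6 ug of total RNA each. The authors deposited MAS5 signals, an intensity on a linear scale, and MAS5 is named in the submitters' processing notes without a version or scaling target. The mean after trimming 2% of values at each end was 250 on every array, so no further scaling was applied. The number of arrays limits the precision. Of 45101 probe sets, 34945 had 1 gene symbol, 932 had several, 9160 are unnamed here and 64 were controls. Symbols were updated through a RefSeq table of GRCm38.p6, which held 34741 of the IDs. Probe sets with a mean below 25.1, the 40th percentile, were left out, and the brightest one of each gene was used.

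Values were taken as log2(signal + 7.9), with the 20th percentile of the table as pseudocount. limma 3.58.1 in R 4.3.3 (lmFit, eBayes with trend) was fitted over all 12253 genes with genotype as the single term, and likewise over all probe sets. Two-sided p-values were adjusted by Benjamini-Hochberg. A simulation of 12253 genes held 50 with a true shift of 1.5-fold, 100 of 2-fold and 50 of 4-fold. The fit called 58%, 88% and 100% of these sets, in that order, along with 6 unchanged genes. The shifted genes were a far smaller share than the 47.2% called in the real data. As the adjustment depends on that share, these rates do not carry over to the real data.

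The members and lists were chosen with earlier results of these data known. Values of every array are given for the 3 called members of each role with the largest log2 fold change, and for Hspa5, Atf6, Ern1, Eif2ak3, Atf4 and Ddit3. Of the other ER genes, Xbp1 and up to 3 called genes of each role with the largest change are named. No member was under the filter, so no test of dim members was needed. Protein sequence features were not analysed here. Alternatives were other pseudocounts (1 and 32), filters, scalings, variance models, probe set choices, a replicate block and each array left out. Probe sets with names ending in _a_at, _s_at or _x_at were taken as shared between transcripts, whether of the same gene or of different genes.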

Additional observations from a re-analysis of the deposited data

Results flagged for a closer look

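A sample lay apart from the other 4 of its group for 2 of 88 groups checked (the 43 genes and Irf4 in each genotype), where chance gives about 1 in 20. Ern1 in Irf4-/- replicate 4 read 151 signal units against 94.0 to 99.5 on the other arrays, a gap of 0.881 of the group's range on the log2 scale. Without that array its log2 fold change was -0.71 in place of -0.59. Hspa5 in Irf4+/+ replicate 5 read 12883 against 13841 to 14209, a gap of 0.732 of the range, and without that array its log2 fold change was -0.22 in place of -0.20.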

How the results depend on the processing

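Of 43 members, 28 were lower under every array left out and 21 to 28 under 11 other settings, where 21 came from leaving out shared probe sets, which kept 36 members. The members called higher numbered 4 to 7 over all alternatives. The other ER genes gave 48 to 71 lower and 18 to 27 higher, and all genes gave 4887 to 6003 calls. Of 33 called members 28 had a value under every alternative. Of these, 22 kept their call and 27 their direction throughout. The exception in direction was Eif2ak3, at 0.012 with the mean of its probe sets. Among members not called, Dnajb11 turned sign with quantile normalization (0.019) and array weights (0.0073), and Sec23b with quantile normalization (0.017). Over the arrays left out Dnajb11 ranged from -0.079 to 0.033, Sec23b from -0.088 to 0.0088, Ssr4 from -0.064 to 0.032 and Ddit3 from -0.18 to 0.022. Of the member probe sets 55 were called lower, and 54 to 57 under settings added after the data were seen. The cause of these changes was not tested. Same-numbered samples did not deviate together (correlations of -0.04 to 0.05, with 1 of 5 matching its own number best). These values show no pairing, but they cannot tell whether same-numbered samples were paired in the experiment. With the replicate number as a block 28 members were lower and 5 higher, and 5715 genes were called.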

Other observations

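Genes that govern eIF2 alpha, the translation factor on which PERK acts, did not all move with Eif2ak3. The kinases Eif2ak2, which responds to double-stranded RNA, and Eif2ak1, which responds to haem shortage, were higher in Irf4-/- samples, while Eif2ak4, which responds to amino acid shortage, was not called (log2 fold change -0.08, limma adjusted p = 0.502). Eif2ak2 rose 1.41-fold from 195 ± 25.0 to 279.7 ± 49.1 (SD, n = 5; limma adjusted p = 0.00362) and Eif2ak1 rose 1.32-fold from 460.2 ± 48.9 to 612 ± 71.1 (adjusted p = 0.00124). On the phosphatase side, Ppp1r15b, the constitutive counterpart of Ppp1r15a, fell 1.22-fold (adjusted p = 0.000281). Among ER proteins that went against the general fall, Erp44, which retains oxidases and unassembled antibody in the early secretory pathway, rose 1.46-fold from 2840.5 ± 188 to 4145 ± 184 (adjusted p = 4.34e-07). Tmbim6, an ER membrane protein that restrains IRE1, rose 1.57-fold from 1736 ± 138 to 2726 ± 92.3 (adjusted p = 1.20e-07). These genes were chosen after their values were seen.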
